A study of Mus musculus with 4 samples.

Results

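A set of 9 genes that answer to glucocorticoid hormones or encode metal-binding proteins was followed in peritoneal cells of the mouse: Fkbp5, Tsc22d3, Klf9, Per1, Sgk1, Dusp1, Nr3c1, Mt1 and Mt2. They are 9 of the 31253 genes of the deposited matrix, and all were found by symbol. They were chosen by their CPM and shares of cells in these same libraries, so the values below describe them and test nothing. The matrix holds 26811 cell barcodes with whole-number counts of unique molecular identifiers (UMIs, 1 for each captured transcript), made from cells washed out of the peritoneal cavity and sorted for F4/80, the macrophage surface protein encoded by Adgre1. The labels give 4 groups of mice aged 24 weeks with 1 sample each. They are C57BL/6 mice on normal diet, Apoe-/- mice on normal diet, Apoe-/- mice after a high-fat diet, and Apoe-/- mice after the same diet that were given anti-CVI-mAb, an antibody to collagen VI. The 3 Apoe-/- groups lack apolipoprotein E, a cholesterol carrier. The fat-rich diet, with 21% fat and 0.15% cholesterol, began at 4 weeks of age, lasted 20 weeks, and was replaced by normal diet ahead of the injections at week 21. Each injection was intraperitoneal and had a volume of 200 µL, with 3 mg of antibody in the antibody group and PBS alone in the other high-fat group. Both groups on normal diet also received PBS. Male sex is stated for the Apoe-/- mice that started the high-fat diet.

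Barcodes end in 1 of 4 suffixes, called libraries 1 to 4 here. Nothing in the labels or the file headers says which suffix belongs to which sample. A difference between libraries therefore has no known group behind it, each library is 1 sample without a replicate, and no p-value was computed. Genotype, diet, antibody, animal and handling of a library cannot be told apart. Intervals are exact 95% intervals and cover counting error only.

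Glucocorticoids enter the cell and bind the glucocorticoid receptor, the product of Nr3c1, which moves to the nucleus and switches genes on or off. In macrophages this damps inflammatory output. Several targets feed back on the hormone signal itself, and their transcripts are widely used as a readout of it. Metallothioneins are small cysteine-rich proteins that bind zinc and copper. Their genes respond to metal through the transcription factor MTF-1 and, in the mouse, also to glucocorticoids and to oxidative stress.

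Cells were sorted into 3 gates by their own counts, once barcodes under 500 genes or above 10% mitochondrial UMIs had been dropped. Macrophages had at least 2 UMIs of Adgre1 and none of Cd79a or Cd3e, B cells had at least 3 UMIs of Cd79a and none of Adgre1, and T cells had at least 2 UMIs of Cd3d, Cd3e and Cd3g together and none of Adgre1. Of 20864 kept barcodes, 3513 lay in no gate and 27 lay in both lymphocyte gates. The macrophage gate held 1538, 4218, 4334 and 5017 cells in libraries 1 to 4, the B cell gate 586, 576, 311 and 281, and the T cell gate 116, 104, 158 and 139. Median depth in macrophages was 8218.5, 12506.5, 13951 and 12903 UMIs per cell. B cells ranged from 4859 to 9508.5 and T cells from 4119.5 to 5230 across libraries. Levels are UMIs summed over a gate per 1000000 UMIs of that gate (CPM).

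All 9 macrophage markers were detected in the macrophage gate of every library, at a summed 46040 to 73680 CPM against 1104 to 1844 CPM in B cells and 1642 to 2985 CPM in T cells. Lymphocytes passed although the sort was for F4/80, and Adgre1 was at 0 in their gates by construction. Library 1 stood apart in several ways. It was the shallowest, its macrophages carried a median 5.16% mitochondrial UMIs against 3.63 to 4.24% elsewhere, and after thinning each cell to 3000 UMIs at random, 90.6% of its macrophages had a UMI of Retnla and 37.0% one of Lyve1, against 20.5 to 24.3% and 1.86 to 2.31% in the others. The summed B cell markers stood at 139 CPM in its macrophages and at 6.67 to 18.3 CPM in the others, and mast cell markers at 45.5 CPM against 1.21 to 3.19 CPM. Of the kept barcodes, 70 share their bases with a barcode of another suffix. The part of these differences in the levels below was not tested.

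Regulatory sequence of the genes was read next, for matches to motifs of known regulators and their place relative to each start. RefSeq promoter windows on GRCm38.p6, 250 bases each, were read for 8 of the genes, 16 windows in all, among 32851 windows of the mouse table. Nr3c1, on chr18, was left out of this reading, so nothing is said of its promoter. The search covered both strands for the palindrome bound by the glucocorticoid receptor (AGAACA, any 3 bases, TGTTCT), its shorter form that ends after TGT, the E-box CACGTG bound by clock proteins, the cyclic AMP element TGACGTCA, the antioxidant element TGACNNNGC, and the metal response cores TGCACNC and TGCGCNC. The shorter receptor motif lies inside the palindrome, so each full match is counted under both. Capitals mark every match in the sequences, which read 5′ to 3′ along the gene. Positions count from the RefSeq transcription start that each window precedes. The Fkbp5, Per1 and Dusp1 windows and the printed Sgk1 window lie within the span that GENCODE M21 gives these genes, not ahead of it.

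Sgk1 carried the full palindrome in 1 of its 6 windows, chr10:21993640-21993889 on the plus strand, starting at position -189. Only 3 of the 32851 windows (0.00913%) held that motif, and 0.368% held the shorter form. An E-box at -246 precedes it, a motif found in 6.02% of windows.

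Sgk1: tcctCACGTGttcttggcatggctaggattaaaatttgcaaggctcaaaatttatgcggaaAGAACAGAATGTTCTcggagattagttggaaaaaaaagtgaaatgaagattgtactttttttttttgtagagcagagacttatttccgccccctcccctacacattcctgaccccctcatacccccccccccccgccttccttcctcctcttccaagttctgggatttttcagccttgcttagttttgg

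Fkbp5 (chr17:28486150-28486399, minus strand) had an E-box at -169 and no other match. Per1 (chr11:69098699-69098948, plus strand) had an E-box at -166 with an antioxidant element on each side, at -215 and -148, a motif held by 10.2% of windows.

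Fkbp5: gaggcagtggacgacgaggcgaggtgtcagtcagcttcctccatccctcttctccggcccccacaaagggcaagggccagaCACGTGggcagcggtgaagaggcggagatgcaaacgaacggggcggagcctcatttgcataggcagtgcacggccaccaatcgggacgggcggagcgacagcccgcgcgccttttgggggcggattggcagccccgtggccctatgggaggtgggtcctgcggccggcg

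Per1: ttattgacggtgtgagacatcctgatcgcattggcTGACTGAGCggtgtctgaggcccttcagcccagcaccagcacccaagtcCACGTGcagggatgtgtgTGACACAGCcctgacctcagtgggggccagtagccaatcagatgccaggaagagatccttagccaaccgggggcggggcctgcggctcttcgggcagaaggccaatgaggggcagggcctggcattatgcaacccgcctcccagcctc

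The metallothionein windows differed in metal response cores, and bases outside them were not searched. The GENCODE M21 annotation starts Mt1 at 94179082, inside its window, and Mt2 at 94172664, past the end of its window. The 2 windows are therefore not placed alike on that annotation, and their matches are not a count over whole promoters. Mt1 (chr8:94178839-94179088, plus strand) had 1 match of TGCACNC at -23, and Mt2 (chr8:94172368-94172617, plus strand) had 2 matches of it, at -223 and -50, with TGCGCNC at -128 and an antioxidant element at -79. These cores are common, in 10.4% of windows for TGCACNC and 12.5% for TGCGCNC, and 1.18% of windows held TGCACNC 2 or more times.

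Mt1: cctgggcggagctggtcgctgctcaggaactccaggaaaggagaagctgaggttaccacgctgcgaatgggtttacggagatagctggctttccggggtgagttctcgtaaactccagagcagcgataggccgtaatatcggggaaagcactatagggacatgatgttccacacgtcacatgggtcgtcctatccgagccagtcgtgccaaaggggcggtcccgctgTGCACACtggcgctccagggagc

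Mt2: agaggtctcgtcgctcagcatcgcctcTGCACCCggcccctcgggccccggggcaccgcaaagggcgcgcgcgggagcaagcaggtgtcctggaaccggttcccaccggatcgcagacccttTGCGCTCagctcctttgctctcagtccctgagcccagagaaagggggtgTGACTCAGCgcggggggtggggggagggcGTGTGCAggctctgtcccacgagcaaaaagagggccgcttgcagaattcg

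Dusp1 had TGACGTCA at -143, a motif of 1.55% of windows, an E-box at -126 and an antioxidant element at -133 on the opposite strand. The other Per1 window (chr11:69099902-69100151) had TGCGCNC at -69, also on the opposite strand. No window of Klf9 or Tsc22d3 held any of the 7 motifs, which says only that these letters are absent from those stretches. A match describes the sequence and is not evidence of binding.

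Fkbp5 encodes FKBP51, a co-chaperone that lowers the affinity of the glucocorticoid receptor for hormone and is itself induced by it. GENCODE M21 places the gene on chr17:28399094-28517527, minus strand, of GRCm38. Macrophages held 117 CPM of Fkbp5 in library 1 (95% interval 112 to 123), 51.8 CPM in library 2 (49.9 to 53.7), 109 CPM in library 3 (106 to 111) and 11.0 CPM in library 4 (10.2 to 11.8). Library 4 was far below the rest, library 2 lay between, and no intervals overlapped. The log2 ratio of library 4 was -3.41 to library 1 (-3.54 to -3.29), -2.23 to library 2 (-2.35 to -2.12) and -3.30 to library 3 (-3.41 to -3.19), or 10.6, 4.70 and 9.86-fold. After thinning to 3000 UMIs, 31.3, 14.2, 26.5 and 2.79% of macrophages had an Fkbp5 UMI in libraries 1 to 4. Without thinning the shares were 57.4, 41.6, 70.6 and 12.3%.

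The same library was lowest for Fkbp5 outside macrophages. B cells held 48.5, 52.5, 67.2 and 15.7 CPM of Fkbp5 in libraries 1 to 4, on 325, 254, 122 and 31 UMIs. T cells held 65.3, 69.2, 65.3 and 29.5 CPM of it, on 48, 41, 47 and 24 UMIs. Library 4 was 3.08 to 4.27-fold below the other libraries in B cells and 2.21 to 2.34-fold below them in T cells, and none of the 6 intervals of these ratios reached equality. In library 4 the Fkbp5 level of both lymphocyte gates was above that of macrophages, at 143 and 268% of it. The interval of the log2 ratio of macrophages to B cells there (-1.03 to 0.05) included equality, and that to T cells (-2.01 to -0.77) did not.

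**Figure D1:**
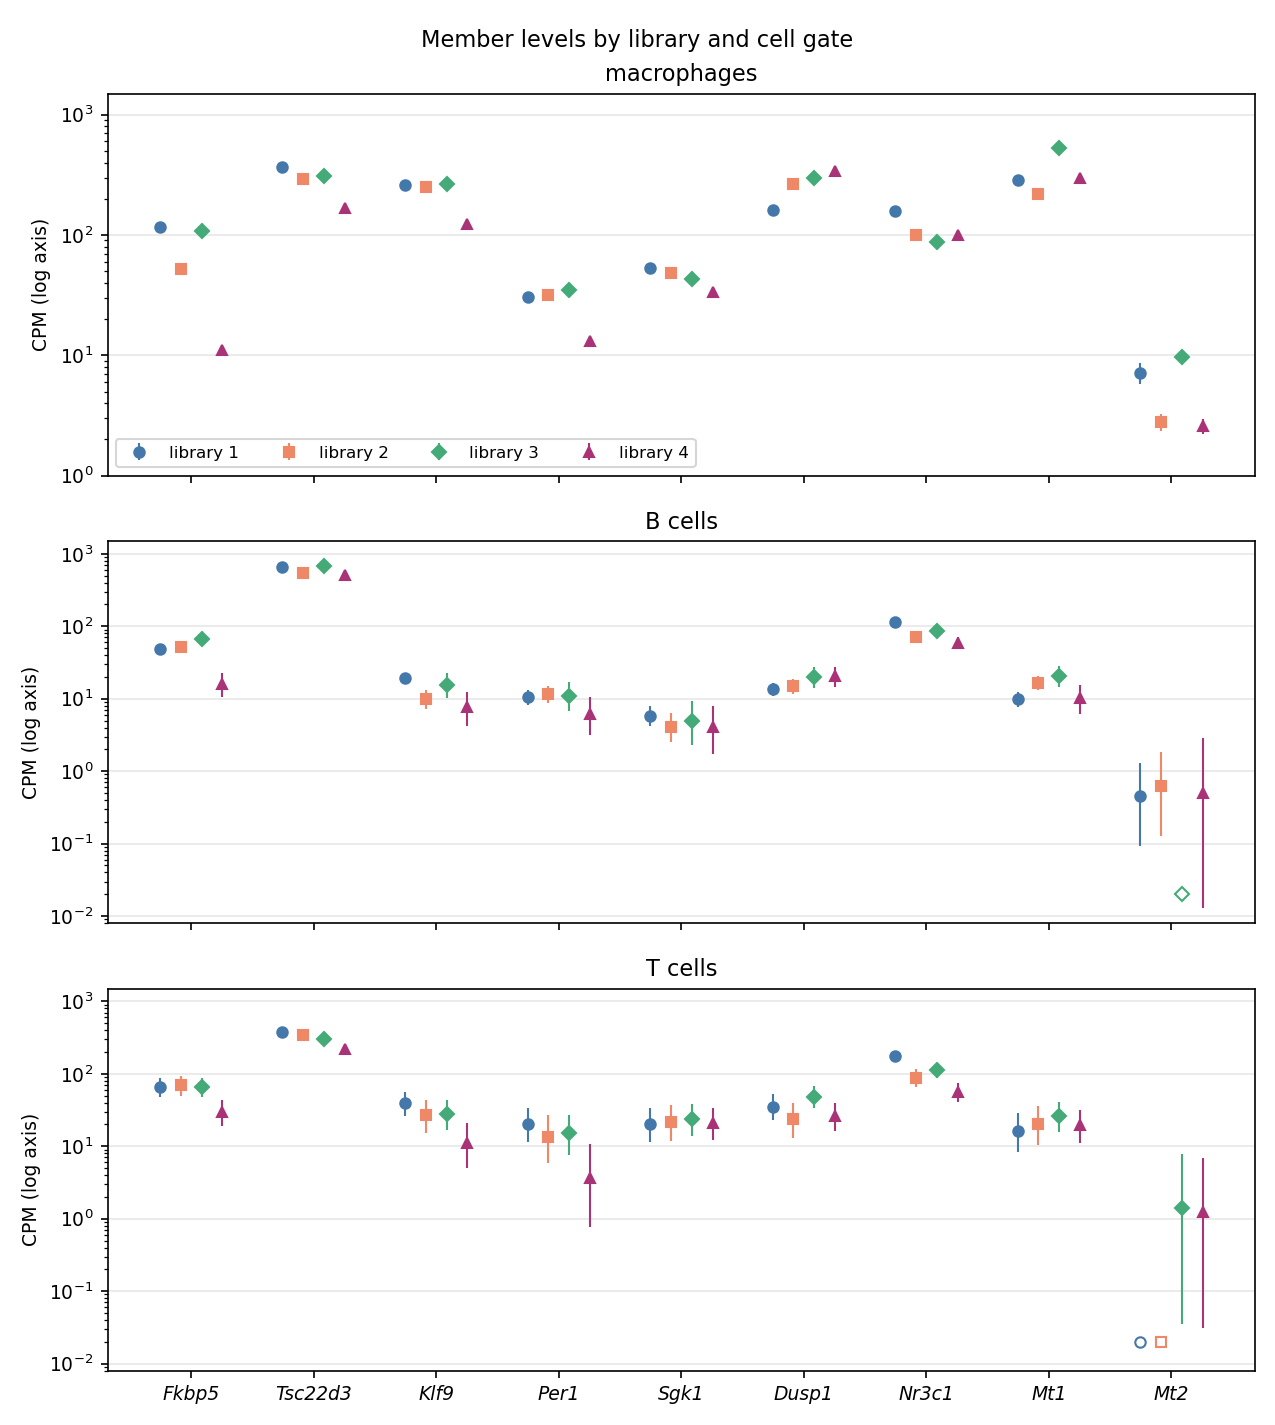
Levels of the 9 genes in CPM on a log axis, by library (symbols) in macrophages, B cells and T cells. Bars are exact 95% counting intervals, and open symbols at the bottom stand for 0 UMIs. In each panel the triangle of library 4 is the lowest of the Fkbp5 points, at 11.0, 15.7 and 29.5 CPM.

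Tsc22d3 encodes GILZ, an anti-inflammatory leucine zipper protein and a direct target of the glucocorticoid receptor (chrX:140539528-140600659, minus strand). In macrophages its level was 370, 290, 310 and 169 CPM in libraries 1 to 4. Library 4 was again lowest, 1.72 to 2.19-fold below the others. B cells held more of it than macrophages did in each library, at 650, 535, 683 and 503 CPM, and T cells were close to macrophages at 373, 343, 303 and 217 CPM. In B cells the interval of the ratio of library 4 to library 2 included equality (-0.20 to 0.02 on the log2 scale).

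Klf9 encodes a zinc finger transcription factor that rises early after the hormone (chr19:23141226-23168134, plus strand). Its macrophage level was 258, 250 and 268 CPM in libraries 1 to 3 and 123 CPM in library 4. Libraries 3 and 1, and libraries 1 and 2, did not differ beyond counting error, the intervals of libraries 2 and 3 (246 to 254 and 264 to 272 CPM) did not overlap, and library 4 was 2.04 to 2.18-fold below each. Lymphocytes held 7.62 to 39.4 CPM of Klf9, lowest in library 4 in both gates. The log2 ratio of library 4 to library 2 in B cells (-1.32 to 0.48) included equality.

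Per1 encodes a repressor of the circadian clock with a glucocorticoid-responsive promoter (chr11:69095217-69109960, plus strand). Macrophages held 30.5, 31.9, 34.6 and 13.0 CPM of it. Library 4 was 2.34 to 2.66-fold below each other library, and libraries 1 and 2 did not differ beyond counting error. Library 4 was lowest in T cells too, where the counts were 15, 8, 11 and 3 UMIs and the log2 ratio of library 2 to library 4 (-0.19 to 4.42) included equality. In B cells, at 10.4, 11.6, 11.0 and 6.09 CPM, the intervals of its ratios to libraries 1 and 3 included equality.

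Sgk1 encodes a kinase that acts on ion channels and was named for its induction by serum and glucocorticoid (chr10:21882184-21999903, plus strand). Its macrophage level was 53.0, 48.7, 43.1 and 33.7 CPM. Library 4 was lowest by 1.28 to 1.57-fold, the narrowest range of the genes tested here. In T cells its level was 20.4 to 23.6 CPM with no ratio of library 4 beyond counting error.

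Dusp1 encodes a phosphatase that switches off MAP kinases and is induced by glucocorticoids and also by stress (chr17:26505590-26562128, minus strand). It ran the other way in macrophages, at 162, 264, 297 and 342 CPM in libraries 1 to 4. Library 4 was highest and library 1 lowest, 2.12-fold apart. The thinned shares of macrophages with a UMI were 32.9, 49.9, 53.8 and 57.6%.

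Nr3c1, the receptor gene itself (chr18:39410545-39519421, minus strand), stood at 157, 101, 86.8 and 101 CPM in macrophages. Libraries 2 and 4 did not differ, library 3 was a little lower and library 1 higher, with a whole range of 1.81-fold. In lymphocytes the lowest level was in library 4, at 59.4 CPM in B cells against 71.9 to 116 CPM in the others and at 55.4 CPM in T cells against 87.8 to 174 CPM. The log2 ratio of library 4 to library 2 in B cells (-0.59 to 0.03) included equality.

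**Figure D2:**
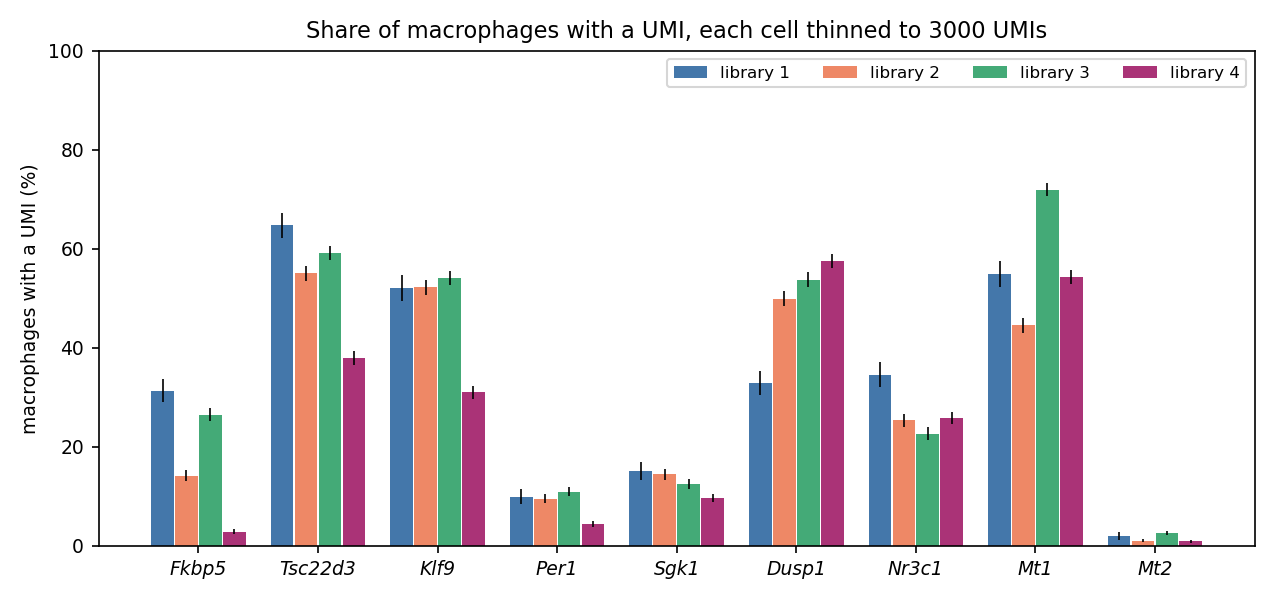
Share of macrophages with at least 1 UMI of each gene, in percent, after each cell was thinned to 3000 UMIs, by library (bars) with exact 95% intervals. The bar of library 4 is the lowest for Fkbp5 at 2.79%, Tsc22d3 at 38.0%, Klf9 at 31.0% and Per1 at 4.35%, and the highest for Dusp1 at 57.6%.

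Mt1 and Mt2 encode the metallothioneins found in most tissues and lie 5513 bases apart (Mt2 at chr8:94172664-94173568 and Mt1 at chr8:94179082-94180327, both on the plus strand). Mt1 stood at 286, 218, 530 and 297 CPM in macrophages of libraries 1 to 4. Library 3 was highest, library 2 lowest, and libraries 1 and 4 were nearly equal on CPM with a log2 ratio of 0.06 (0.01 to 0.11). Mt2 was far rarer at 7.09, 2.78, 9.67 and 2.57 CPM, on 94, 154, 609 and 173 UMIs. Libraries 3 and 1 were above libraries 2 and 4, and the last pair did not differ beyond counting error. Mt2 UMIs were 2.48, 1.28, 1.83 and 0.864% of those of Mt1. The annotated transcripts share 0 of their runs of 31 bases, 1273 for Mt1 and 573 for Mt2. Mt2 overlaps the antisense gene Gm45774, Fkbp5 the antisense gene AC154912.1, and Dusp1 the gene Ergic1 on the opposite strand. The sources used here do not say whether the counting used strand, so reads of such partners may have been mixed.

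Of the 8 genes that reached 20 CPM in macrophages of a library, 6 ranged at least 2-fold over libraries, namely Fkbp5, Tsc22d3, Klf9, Per1, Dusp1 and Mt1, against 30.7% of the 6300 genes at that level. Their median range was 2.18-fold and that of all 6300 genes was 1.69-fold. Fkbp5 held rank 42 of 6300 by width of range, and the next, Per1, rank 634. Library 4 was at least 2-fold below each other library for 3 of the 8, Fkbp5, Per1 and Klf9, against 0.175% of genes, which is 11 genes in all. None of the 8 had library 4 at least 2-fold above each other library (0.0159% of genes). These library 4 counts were read after the values were seen. Others were Chil3, Plac8, Oas3, Ifi27l2a, Oas2, Oasl2 and Pfkfb3, among them Ifi27l2a and 3 Oas genes that are known as interferon targets. Ifi27l2a stood at 479, 473, 540 and 179 CPM.

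Of the 9 genes, only Fkbp5 had library 4 2-fold below each other library under all 3 scalings run, CPM, CPM without mitochondrial and dominant genes, and median-of-ratios. The count over all 6300 genes was 11, 10 and 8 in that order. On CPM the median gene of library 4 lay at -0.54, -0.21 and -0.06 log2 of libraries 1, 2 and 3, and library 4 was lowest for 46.5% of genes against 5 of the 8 genes here. With median-of-ratios scaling, which brings those medians to -0.10, 0.01 and -0.00, library 4 was lowest for 21.3% of genes and still for 5 of the 8. Fkbp5 was then 7.80, 4.04 and 9.45-fold below libraries 1, 2 and 3, Per1 1.71, 2.10 and 2.55-fold, Klf9 1.54, 1.75 and 2.09-fold, and Tsc22d3 1.60, 1.47 and 1.76-fold. Mt1 kept library 3 highest and library 2 lowest, but its level in library 1 was then 0.70 of that in library 4. Nr3c1 ranged 1.38-fold. The range counts also rested on library 4: without it, 2 of the genes, Fkbp5 at 2.27-fold and Mt1 at 2.43-fold, ranged 2-fold in macrophages, against 25.5% of 6286 genes.

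In B cells 2 of 5 genes that reached 20 CPM, Fkbp5 and Mt1, ranged at least 2-fold, against 17.9% of genes. In T cells it was 5 of 8, Fkbp5, Klf9, Per1, Dusp1 and Nr3c1, against 39.9%. Few UMIs lay behind the T cell values, 24 or fewer each of Fkbp5, Klf9, Per1 and Dusp1 in library 4. Library 4 was at least 2-fold below each other library for 1 of the 5 in B cells, Fkbp5 (0.185% of genes), and for 3 of the 8 in T cells, Fkbp5, Klf9 and Per1 (2.08% of genes). It was 2-fold above each for none (0.101% of genes in B cells and 0.116% in T cells). Of any size, library 4 was lowest for 3 of 5 in B cells (35.9% of genes) and 5 of 8 in T cells (32.2% of genes). Without library 4, 1 of 4 genes, Mt1, ranged 2-fold in B cells against 12.6% of genes, and 1 of 8, Dusp1, in T cells against 31.3%. Without library 3 it was 1 of 4 in B cells, Fkbp5, against 12.9%. The Mt1 level of B cells was 3.42 to 7.58% of that of macrophages, where the highest macrophage marker stood at 3.65 to 10.4% depending on the library. The T cell gate of library 1 held B cell markers at 3467 CPM against 826 to 868 CPM in the other libraries and mast cell markers at 223 CPM against 1.69 to 13.9 CPM. Their part in its T cell levels was not tested.

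The genes differed in how their levels compared between gates. Klf9, Sgk1, Dusp1 and Mt1 were at least 2-fold higher in macrophages than in B cells in all 4 libraries, 4 of 6 genes at 20 CPM in the higher gate of every library, against 16.1% of genes. None of the 6 was 2-fold lower in all, against 9.52% of genes. The log2 ratios were 3.75, 4.66, 4.12 and 4.01 for Klf9, 3.57, 4.15, 3.91 and 4.07 for Dusp1, and 4.86, 3.72, 4.70 and 4.87 for Mt1. Against T cells 3 of 7, Klf9, Dusp1 and Mt1, were higher in every library (13.9% of genes) and 0 lower (11.5% of genes). Sgk1 was above T cells too, by 0.69 to 1.38 log2, and was lower in B cells than in T cells by at least 2-fold in all 4 libraries (7.03% of genes). None was 2-fold higher in B cells than in T cells in all 4 (5.27% of genes).

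Per1 was above B cells in all 4 libraries, by 1.54, 1.46, 1.65 and 1.10 log2, but was not among the genes counted because it was under 20 CPM in library 4. It was above T cells by 0.58, 1.24, 1.18 and 1.82 log2, and the interval in library 1 included 0. Tsc22d3 was lower in macrophages, with log2 ratios to B cells of -0.81, -0.88, -1.14 and -1.57. Nr3c1 had log2 ratios of macrophages to B cells of 0.43, 0.48, 0.00 and 0.76, of which the interval in library 3 (-0.22 to 0.24) included 0, and ratios to T cells of -0.15, 0.20, -0.36 and 0.86. The order of the gates for Fkbp5 varied between libraries. For Fkbp5 the log2 ratio of macrophages to B cells was 1.27, -0.02, 0.69 and -0.51 in libraries 1 to 4, and that to T cells 0.85, -0.42, 0.74 and -1.42. Macrophages led in libraries 1 and 3, the gates were near each other in library 2, and macrophages were below T cells in library 4. Fkbp5 ranged 10.6-fold over libraries in macrophages, 4.27-fold in B cells and 2.34-fold in T cells. Whether these ranges differ was not tested.

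**Figure D3:**
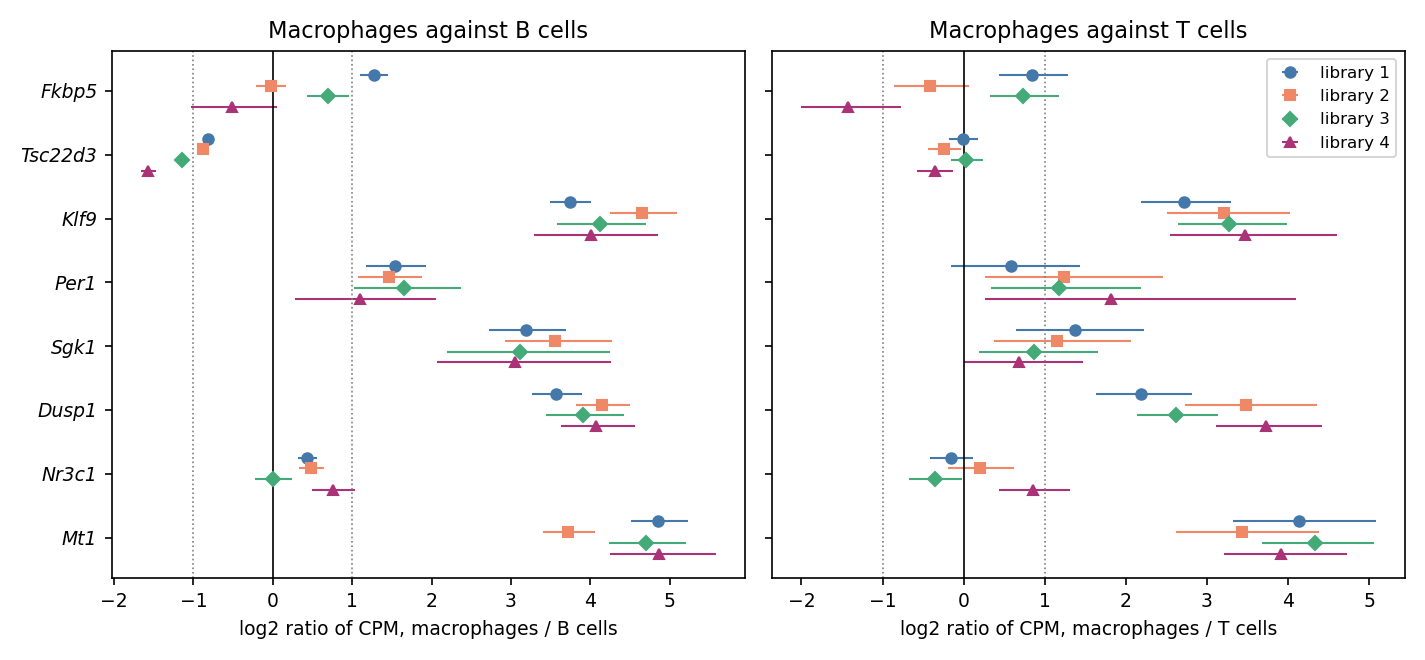
Log2 ratio of CPM in macrophages to that in B cells (left) and T cells (right) for 8 genes, by library (symbols) with exact 95% intervals. Dotted lines mark 2-fold. Klf9, Dusp1 and Mt1 lie right of the 2-fold line in every library, while Fkbp5 runs from 1.27 to -0.51 on the left and from 0.85 to -1.42 on the right.

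Free RNA from macrophages was gauged by macrophage markers in the lymphocyte gates. The 8 markers other than Adgre1 stood in B cells at 0 to 10.4% of their macrophage level and in T cells at 0 to 8.55%. The highest marker stood in B cells at 10.4, 6.9997, 3.65 and 6.64% in libraries 1 to 4. Mt1 in B cells was at 3.45, 7.58, 3.85 and 3.42% of its macrophage level, above that maximum in libraries 2 and 3. Klf9, at 7.46, 3.97, 5.76 and 6.20%, and Dusp1, at 8.41, 5.64, 6.67 and 5.94%, were above it in library 3 alone. Sgk1, at 10.98, 8.49, 11.5 and 12.05%, was above it in each library. In T cells the highest marker stood at 5.88, 8.55, 7.75 and 4.14%, and Dusp1, at 21.9, 8.95, 16.3 and 7.55%, and Klf9, at 15.3, 10.803, 10.4 and 9.02%, were above it in each. Mt1 in T cells, at 5.71, 9.29, 4.98 and 6.63%, was above it in libraries 2 and 4 alone. The part of free RNA in the lymphocyte levels of these genes was not tested. Thinned shares of cells with an Mt1 UMI were 2.33 to 7.20% in B cells and 4.08 to 6.72% in T cells against 44.6 to 71.9% in macrophages. Fkbp5 at 41.3 to 143%, Nr3c1 at 59.1 to 99.7%, Per1 at 31.8 to 46.8% and Tsc22d3 at 176 to 297% lay above the highest marker in B cells of each library. Mt2 had 0 to 3 UMIs in any lymphocyte gate and is not read there.

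Inside macrophages the low Fkbp5 of library 4 appeared in each kind of cell examined. Cells were thinned to 3000 UMIs and split by a UMI of Lyve1 or Timd4, markers of resident cells, of Ccr2, a monocyte chemokine receptor, of Retnla, an alternative activation gene, or of the dividing-cell genes Mki67 or Top2a. With a Lyve1 UMI, the Fkbp5 level was 140, 40.3, 183 and 11.6 CPM in libraries 1 to 4, on 225, 11, 44 and 4 UMIs. With Retnla it was 131, 42.8, 106 and 12.4 CPM. With Timd4 it was 85.8, 51.0, 110 and 10.4 CPM, with a dividing-cell gene 127, 35.9, 112 and 14.1 CPM, and with Ccr2 107, 53.8, 151 and 2.35 CPM, the last on 2 UMIs. Library 4 was lowest in all 5 subsets, and library 2 came next in all 5. The cells without each marker gave the same order, with library 4 at 8.76 to 9.99 CPM.

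The level was as low at each depth and mitochondrial load. In 3 equal groups of macrophages from shallow to deep, Fkbp5 of library 4 was 10.4, 9.58 and 12.3 CPM, against 128, 126 and 108 CPM in library 1. In library 2 it was 68.2, 54.7 and 43.4 CPM, lower in deeper cells. With up to 5% mitochondrial UMIs it was 11.1 CPM and with 5 to 10% it was 10.5 CPM. Tsc22d3 was lower in deeper cells in every library, in library 4 from 236 to 168 to 140 CPM and in library 1 from 424 to 414 to 324 CPM. Dusp1 likewise went from 427 to 345 to 302 CPM in library 4. Mt1 was at 300, 302 and 292 CPM in library 4. At the edge of the gate, macrophages with 2 UMIs of Adgre1 held 132, 75.2, 122 and 9.72 CPM of Fkbp5 and cells with 1 UMI, just outside, 101, 75.3, 124 and 7.50 CPM. The edges of the lymphocyte gates held too few cells to give.

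Mt1 was higher in cells with the resident marker Timd4. Its level in cells with and without a Timd4 UMI was 507 and 260 CPM in library 1, 293 and 209 CPM in library 2, 601 and 480 CPM in library 3, and 321 and 275 CPM in library 4. The log2 ratios were 0.96 (0.76 to 1.16), 0.49 (0.34 to 0.64), 0.32 (0.25 to 0.39) and 0.22 (0.14 to 0.31), all above 0. Cells with Ccr2 went the other way, with log2 ratios of -0.13, -0.16, -0.67 and -0.93, of which the interval in library 1 included 0. The share of macrophages with a Timd4 UMI was 11.8, 12.3, 41.1 and 47.4% in libraries 1 to 4, and its part in the Mt1 level of a library was not tested. Library 3 held the most Mt1 both with and without Timd4. With Lyve1, the other resident marker, the log2 ratios of Mt1 were -0.29 (-0.46 to -0.12), -0.21, -0.54 (-0.86 to -0.24) and 0.24, and the intervals in libraries 2 and 4 included 0.

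**Figure D4:**
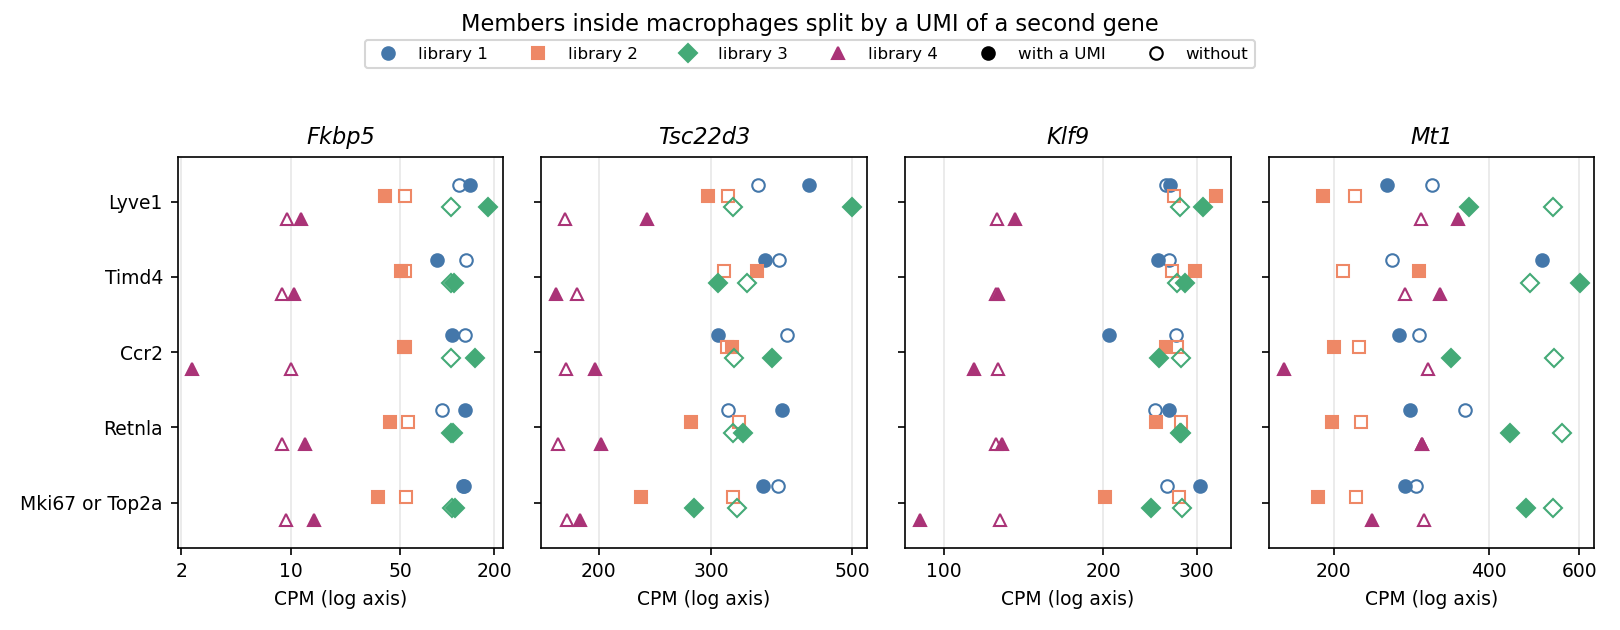
Levels of Fkbp5, Tsc22d3, Klf9 and Mt1 in CPM (log axes) in macrophages with (filled) and without (open) a UMI of the gene named on the left, by library (symbols and colours). Fkbp5 of library 4 lies between 2.35 and 14.1 CPM in every split, left of all other points, and Mt1 is higher with Timd4 in each library.

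Detection of one gene was also set against detection of another in the same cell. Among macrophages with an Mt2 UMI after thinning, 77.8, 61.5, 88.1 and 69.0% had an Mt1 UMI, against 54.5, 44.4, 71.5 and 54.1% of those without, on 27, 39, 109 and 42 cells with Mt2. The intervals with and without Mt2 overlapped in libraries 2 and 4. For Fkbp5, 32.7, 17.1, 27.3 and 2.59% of cells with a Tsc22d3 UMI had one, against 28.7, 10.6, 25.2 and 2.91% of those without. Library 2 showed the wider gap and library 4 none, and the intervals overlapped in libraries 1, 3 and 4. For Dusp1, 32.9, 56.0, 54.7 and 63.0% of cells with a Tsc22d3 UMI had one, against 32.8, 42.6, 52.4 and 54.2% of those without. Those intervals overlapped in libraries 1 and 3. For Mt1 it was 55.9, 45.7, 70.9 and 53.4% with Tsc22d3 against 53.1, 43.2, 73.5 and 54.8% without, and the intervals overlapped in every library. Cells share depth and quality across their genes, so these shares are a description.

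B cells were divided by marker. Cells with a UMI of Fcer2a or Cr2, as in follicular B cells, held 46.2, 43.5, 36.1 and 11.4 CPM of Fkbp5, on 63, 30, 13 and 6 UMIs. Cells with Bhlhe41 or Zbtb32 and neither of those, as in B-1 cells, held 49.8, 58.5, 85.3 and 21.6 CPM. Library 4 was lowest in both. T cells with Cd4 and no Cd8 gene reached 50 cells in libraries 1 and 4 only. They held 42.6 and 32.0 CPM of Fkbp5, on 13 and 15 UMIs, and these intervals overlapped (22.7 to 72.8 and 17.9 to 52.9 CPM). Their Nr3c1 level was 213 and 36.3 CPM.

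Over the 12 sums of 4 libraries and 3 gates, the genes most like Fkbp5 by Pearson correlation of log2(CPM + 1), among 7805 genes, were Ifi27l2a (r = 0.87), Ppid (0.78) and Slfn8 (0.69). For Tsc22d3 they were Ptpn1 (0.93), Relt (0.93) and Sik1 (0.92), and for Mt1 Vkorc1, Tspan4 and Fcgr3 (0.99 each). The sums of a library share its depth and its cells, and for Mt1 the likeness is carried by the gap between macrophages and lymphocytes. Over these sums Fkbp5 was little like Tsc22d3 (0.32) or Mt1 (0.17), and more like Per1 (0.62). Because the sums mix 3 gates, these values do not speak for macrophages alone. There Fkbp5 and Tsc22d3 had the same order of libraries on CPM, 1, 3, 2 and 4 from high to low. With median-of-ratios scaling the order was 3, 1, 2 and 4 for both. On CPM library 1 was highest for 65.6% of all genes and library 4 lowest for 46.5%, so a shared order of this kind is weak likeness.

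Of the listed genes of the hormone and metal pathways that reached 20 CPM in macrophages, none lay 2-fold below each other library in library 4. Only 11 of 6300 genes did (0.175%), so a count of 0 in lists of this size says little about these pathways. Of 20 further glucocorticoid response genes, 11 reached 20 CPM in macrophages, and 7 ranged at least 2-fold, against 30.7% of all genes. In library 4, 0 were 2-fold below each other library (0.175% of all genes). The median range of the 11 was 2.21-fold against 1.69-fold for all genes. The widest was Cd163, a haemoglobin scavenger receptor induced by glucocorticoids, at 113, 9.34, 6.39 and 5.13 CPM. Zbtb16, a zinc finger gene, stood at 44.3, 11.7, 32.4 and 12.7 CPM, with libraries 2 and 4 low. Bcl6, a repressor, stood at 28.1, 10.9, 9.64 and 11.0 CPM and Sesn1, a stress-response gene, at 100.0, 51.4, 39.5 and 52.7 CPM, both highest in library 1. Of the 11, 8 were highest in library 1, where 65.6% of all genes were. Library 4 was lowest for 2 of the 11, against 46.5% of all genes. Cxcr4, a chemokine receptor gene under the minimum, had library 4 2-fold below each other library at 17.2, 9.43, 5.46 and 1.81 CPM. In lymphocytes that held for the listed genes Rgs2 and Slc39a9 in T cells, against 2.08% of genes in that gate. In B cells it held for Slc30a1, which was under the minimum there, against 0.185% of genes past it.

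Receptor chaperones and cofactors were steady. Of 12 genes, 9 reached 20 CPM, and 1 ranged 2-fold, against 30.7% of all genes. It was the coactivator Ncoa2, at 62.0, 32.1, 29.4 and 27.8 CPM. The range of Fkbp4, the chaperone partner that opposes FKBP51 at the receptor, was 1.13-fold at 51.7, 57.3, 54.3 and 50.8 CPM. Hsp90ab1, a main cytosolic chaperone, ranged 1.40-fold.

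Of 16 genes of zinc and metal handling, 9 reached 20 CPM and 6 ranged 2-fold, against 30.7% of all genes. None was 2-fold below each other library in library 4 (0.175% of all genes). All 9 were highest in library 1 and 8 of them lowest in library 4, against 65.6 and 46.5% of all genes. The widest were the zinc importer Slc39a1 at 93.8, 48.1, 31.2 and 28.0 CPM and the exporter Slc30a1, an MTF-1 target, at 22.4, 11.8, 8.93 and 7.79 CPM. Mtf1 itself stood at 29.3, 18.3, 17.1 and 15.3 CPM. None of these had the Mt1 order with library 3 on top. With median-of-ratios scaling 8 of the 9 were highest in library 1, Slc30a9 being the exception, 7 were lowest in library 4 and 2 ranged 2-fold, against 48.7%, 21.3% and 1308 of the 6300 genes. The other metallothioneins of the list, Mt3 and Mt4, were at 0 UMIs in macrophages of each library.

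Of 15 clock genes 3 reached 20 CPM besides Per1, and 1 of the 3 ranged 2-fold, against 30.7% of all genes. It was Arntl, the partner of CLOCK, at 34.6, 14.3, 14.995 and 16.2 CPM. Library 4 was lowest for none of the 3, against 46.5% of all genes. Of 14 genes that respond to handling and stress, 10 reached 20 CPM and 1 ranged 2-fold, against 30.7% of all genes. It was the immediate early gene Fos, at 15.9, 34.9, 54.8 and 41.8 CPM. With median-of-ratios scaling 3 of the 10 ranged 2-fold, against 1308 of 6300 genes. Without mitochondrial and dominant genes 2 of the 10 did, against 1692 of 6300. Jun followed the same order at 46.6, 65.6, 91.5 and 80.2 CPM. Both were lowest in library 1 and highest in library 3. Dusp1, also an early response gene, was lowest in library 1 as they were. The list had no common order, however. Egr1 and Atf3, next in width of range after Fos and Jun, ran the other way on CPM. Both of these were highest in library 1 and lowest in library 3.

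**Figure D5:**
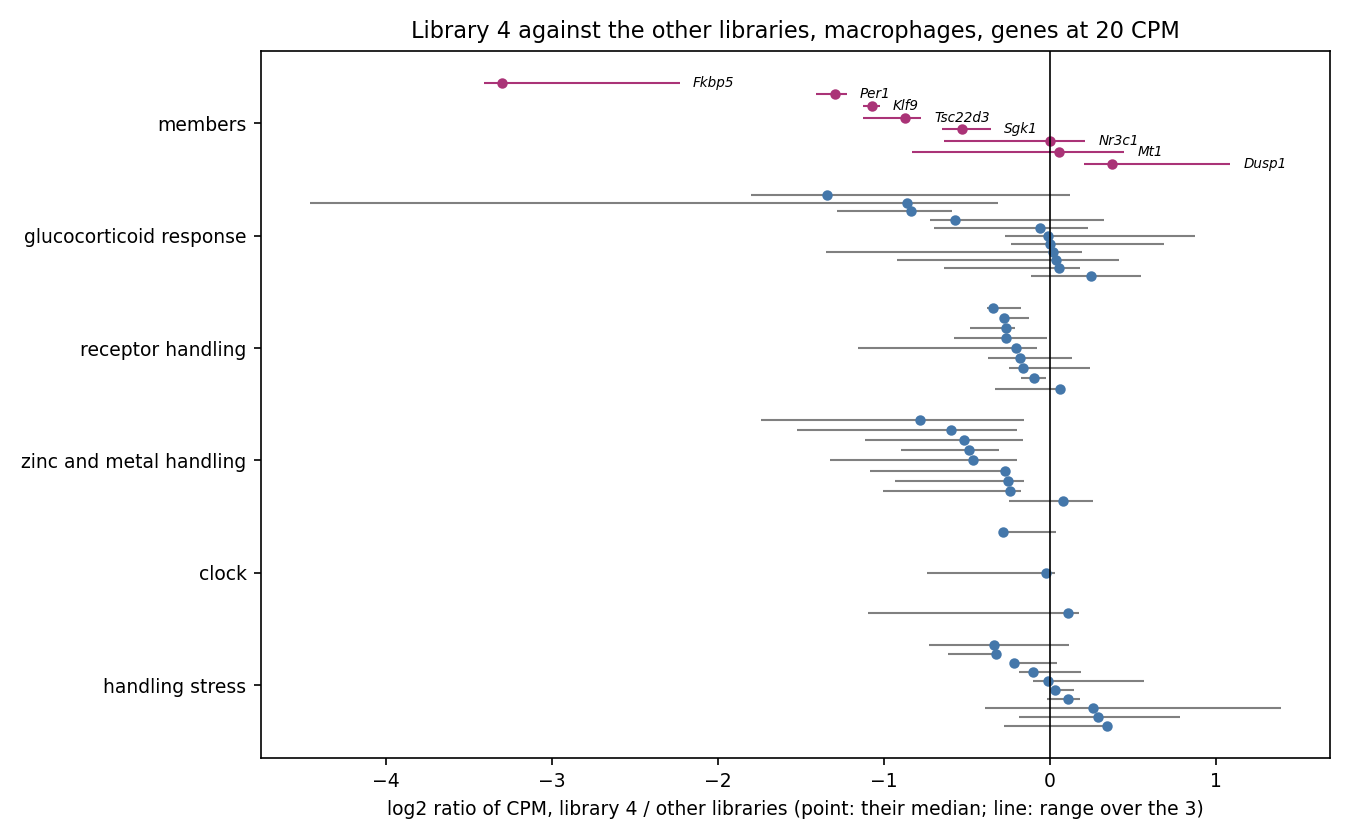
Log2 ratio of CPM in library 4 to the other libraries in macrophages, for the genes of this report at 20 CPM (named) and for 5 lists of related genes. Points are the ratio to the median of the other 3 libraries and lines run over the 3 ratios. Fkbp5 lies at -3.41 to -2.23, and of the listed genes only Cd163 has a line that reaches further left.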

How the data were processed

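Values are UMI counts as the authors deposited them, in a single matrix that Cell Ranger 5.0.1 wrote, per the file headers. CASAVA 1.8, Seurat and mm10 appear in the submitters' processing notes with no step attached. The sources used here do not give aligner settings, annotation or strand use. Libraries 1 to 4 held 40321459, 74067998, 73429015 and 78083803 UMIs, and 3611, 6023, 5311 and 5919 barcodes were kept. UMIs were summed per library and gate and divided by the gate's total. A gene counted as different at 2-fold, with at least 20 CPM in its highest library, or in the higher gate of every library. Libraries without a UMI were set to 3 UMIs. In the counts of library 4 against each other library, all libraries under 3 UMIs were set to 3. Intervals are exact at 95% (Poisson, binomial or Clopper-Pearson). Shares were taken after thinning to 3000 UMIs with shallower cells left out, 24 to 85 macrophages per library. No doublet caller was run.

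The genes and lists were chosen with earlier results of these data known. Named are all 9 genes, the 3 most alike for each of Fkbp5, Tsc22d3 and Mt1, and up to 4 genes of the widest range in each of 5 lists; Mtf1, Fkbp4, Hsp90ab1 and the genes low in library 4 were named after their values were seen. Of the genes low in library 4, 1 is not reported here. Alternatives were other mitochondrial and gene limits, scalings, gates, minimums, thinning and libraries left out. Python 3.11.15, NumPy 2.4.6, SciPy 1.17.1, pandas 2.3.3 and Matplotlib 3.10.9 were used, and the code was tested on simulated data.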

Additional observations from a re-analysis of the deposited data

How the results depend on the processing

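Of 135 recomputed counts of genes, 125 stayed within 1.5 times of the reported count and 10 moved. No called value changed sign, but medians of uncalled ratios near 0 did: the median log2 ratio of Fkbp5 in macrophages to B cells ran from -0.06 to 0.50 over 10 alternatives (0.34 as reported), and those of Tsc22d3 and Nr3c1 to T cells from -0.26 to 0.11 and from -0.23 to 0.24. The count of genes ranging 2-fold in B cells went from 2 to 4 at up to 5% mitochondrial UMIs, to 4 with stricter gates and to 1 at a minimum of 50 CPM, and in T cells from 5 to 2 at 50 CPM. With stricter gates 1 gene, Tsc22d3, was at least 2-fold lower in macrophages than in B cells in every library, against 0. The count with library 4 at least 2-fold below each other library went from 3 to 1, Fkbp5, with median-of-ratios scaling. Leaving out each library in turn gave 2 to 5 genes ranging 2-fold in macrophages, 1 to 2 in B cells and 1 to 4 in T cells. The macrophage range of Fkbp5 was 9.45 to 13.3-fold over 11 alternatives, with library 4 lowest in all 11. No paired analysis was possible because each group has 1 sample and no suffix is tied to a sample. Low counts limit the lymphocyte gates: library 4 held 31 and 24 UMIs of Fkbp5 in B and T cells. The cause of the changes was not tested.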

Other observations

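In the B cell gate of library 1, 7 of 586 cells had a haemoglobin UMI, and 3 of these cells held 8196 of the 8200 haemoglobin UMIs. A second random draw of the thinning gave Fkbp5 UMIs in 29.7, 13.7, 26.8 and 3.13% of macrophages in libraries 1 to 4.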
